A study of Rattus norvegicus with 3 samples.

Results

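The genes described here encode the proteins of the cytosolic ribosome. They were taken as all genes whose probe sets carry a single platform gene symbol that starts with Rpl or Rps followed by a number, by p and a number, or by a alone, with the S6 kinase genes (Rps6k) left out. The rule used names and no measured value. It gave 44 of the 4736 genes on the array, read from 64 of the 7006 probe sets with 1 symbol. Of these genes, 30 belong to the large subunit (Rpl) and 14 to the small subunit (Rps). Another division sets 37 standard genes of the ribosome apart from 7 copies, like-genes and pseudogenes (Rpl19l4, Rpl36al1, Rpl3l, Rplp1l3, Rps2-ps1, Rps27l and Rps4x-ps9).

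A cytosolic ribosome has a small subunit, which reads the messenger RNA, and a large subunit, which joins the amino acids. Each subunit is a core of ribosomal RNA with many proteins that are made in matched amounts, each from its own gene, and carried to the nucleolus for assembly. Their messenger RNAs are among the most abundant of most cells, and many begin with a run of pyrimidines that puts their translation under the control of the mTOR pathway.

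RNA of 3 rat samples was hybridised to 1 Affymetrix expression array each. A time course with the labels 0.0 h, 0.1 h and 1.0 h is named, and every array has pineal gland and adrenal medulla as its source and total RNA as its material. Neither the treatment nor the strain, sex, age, number of animals or share of each tissue is given in the labels, and whether 0.1 h is a true time is not settled by them. With 1 array per label there was no replicate, no test was possible, and every difference compares 2 arrays and not 2 conditions.

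The deposited values are linear intensities, 1 per probe set, and the number of arrays, 3 in all, limits the precision of every comparison. The array medians were 401.5, 430.2 and 457.6 at 0.0 h, 0.1 h and 1.0 h. Differences below are log2 differences after the arrays were brought to a common median, taken where both arrays were above a floor of 262.9 intensity units, and "2-fold" means at least 2-fold apart on that scale. Of 9 pinealocyte markers 7, 8 and 8 were above the floor. Of 8 chromaffin cell markers 5, 5 and 4 were. Among those that make and store catecholamines, Pnmt was above it on all 3 arrays (607.3, 638.8 and 532.2), and Th, Dbh and Slc18a1 were below it on all 3. Chgb, Scg2 and Npy were also above it on every array. The adrenal cortex had 1 of 6 markers above the floor on each array.

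Ribosomal protein genes were among the bright genes of all 3 arrays. Above the floor on every array were 42 of the 44 genes, against 61.6% of all genes. The median of their mean intensities was 19391, against 671.9 over all genes, and 26 of the 44 lay above 12751, the 90th percentile of all genes. A probe set's brightness also depends on its probes, so the order of intensities below is not an order of transcript levels between genes.

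The 4 brightest members were Rpl3, Rpl23, Rps3 and Rps23. Rpl3, a large subunit protein near the site of peptide bond formation, read 288244 on the 0.0 h array, 351980 on the 0.1 h array and 275332 on the 1.0 h array. In the same order, Rpl23 read 212649, 234666 and 204122. Both were highest at 0.1 h and lowest at 1.0 h. Rps3, which sits where messenger RNA enters the small subunit, had 104580, 177984 and 124961, with its 0.0 h value the lowest. Rps23, a protein of the decoding centre, had 72099, 98046 and 70054.

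The dimmest members above the floor throughout were Rps2-ps1, Rpl5, Rpl3l and Rpl17. Rps2-ps1 is a pseudogene, and its intensities were 513.3, 335.7 and 279.5, highest at 0.0 h. Rpl5, which carries the smallest ribosomal RNA into the large subunit, was at 501.8, 377.6 and 490.3. The lowest of these was the 0.1 h array. Rpl3l, a relative of Rpl3 best known from striated muscle, was at 789.2, 1009 and 661.0.

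Both exceptions to detection are large subunit genes. Rpl30 had 372.7, 383.4 and 231.9 and dropped below the floor at 1.0 h. Rplp1l3, a copy of the stalk gene Rplp1, had 168.7, 11.2 and 108.5 and was below the floor on all 3 arrays, so no difference was taken for it. Rplp1, Rplp2 and Rps27a had no probe set that named them alone and were not analysed here.

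**Figure D1:**
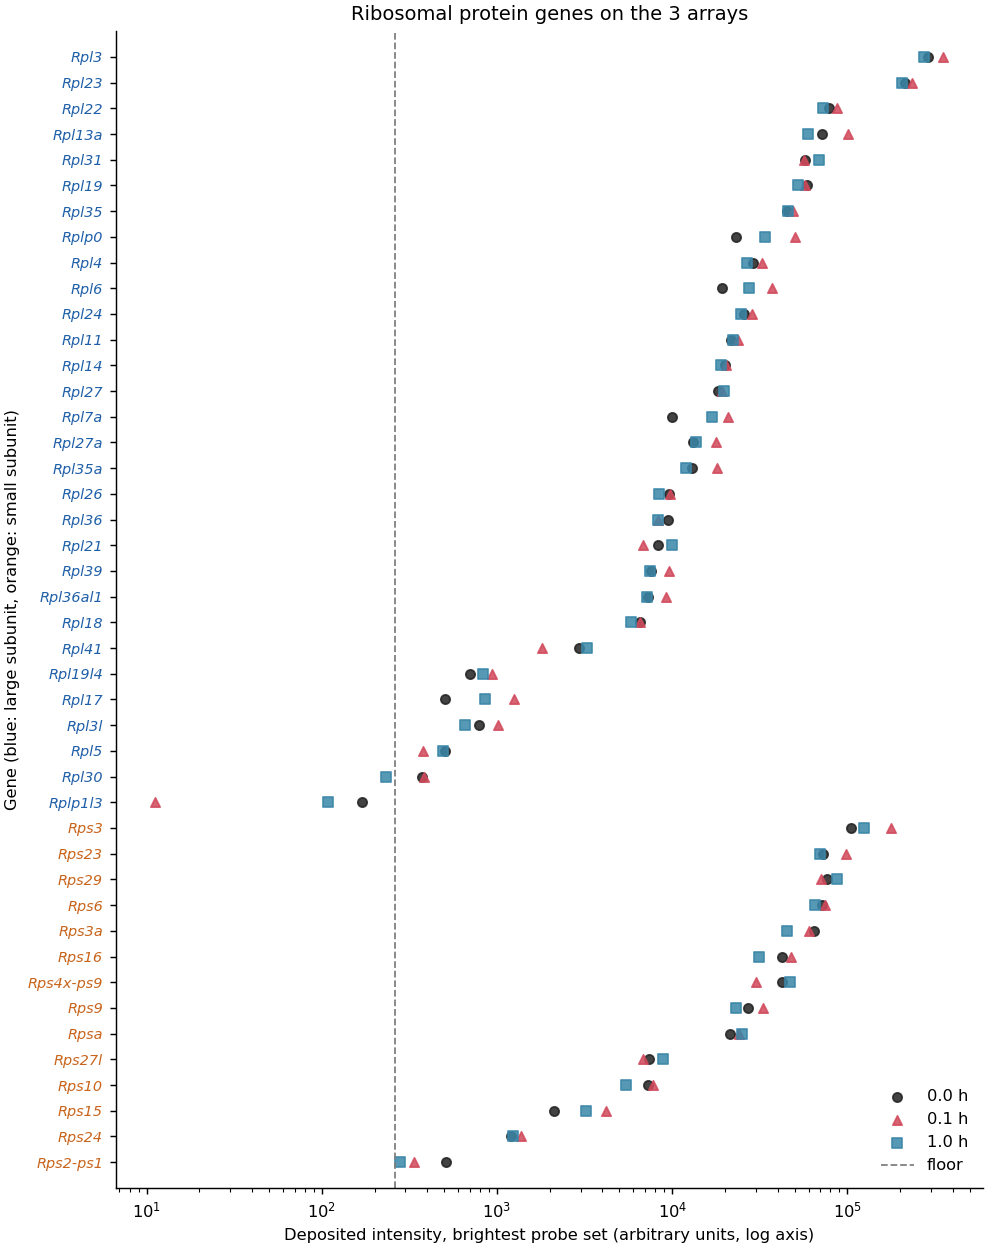
Deposited intensity (log scale) of each ribosomal protein gene on the 3 arrays, with circles for 0.0 h, triangles for 0.1 h, squares for 1.0 h and a dashed line at the floor, and the genes ordered by mean level within the large and small subunit. Rpl3 is the brightest large subunit gene and Rps3 the brightest small subunit gene, and Rplp1l3 lies below the floor of 262.9 on all 3 arrays.

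The first comparison set the 0.1 h array against the 0.0 h array. Ribosomal protein genes lay higher at 0.1 h as a group, by a median of 0.19 (quartiles 0.03 and 0.42) over the 43 measured, while the median of all genes was 0.00; with the spike-in controls made equal in place of the array medians, the sign of the group's median turned to -0.09 and that of all genes was -0.28. The distance between the group and all genes ran from 0.17 to 0.19 over 5 scalings. The main, deposited and spike-in values differ only by a constant per array, which leaves this distance nearly fixed. Of the scalings that can change it, quantile normalisation gave 0.17 and cyclic loess 0.19. Above 0 were 33 of the 43 members, against 49.8% of all genes measured. At least 2-fold higher were 4 members (Rpl17, Rplp0, Rpl7a and Rps15), where 5.68% of all genes were. No member was lower by 2-fold (0 of 43), where 4.71% of all genes were. The shift was small per gene and spread over most members. The SD of the members' differences, from their median absolute deviation, was 0.29, against 0.51 over all genes, which were not matched to the members in brightness.

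Large and small subunit genes had similar medians in this comparison. The large subunit's median was 0.19, with 24 of 29 genes above 0, and turned to -0.09 with the spike-in scaling. The small subunit's was 0.17, with 9 of 14 above 0, and turned to -0.10. The small subunit's median was -0.26 over the 4 genes that could be read from a probe set designed on an expressed sequence tag (EST). It was -0.14 over 2 genes read from a second-brightest probe set, with probe sets whose names end in _g_at left out. Rps3, Rps6 and Rpsa dropped out of that reading, and their less bright probe sets read 0.66, 0.42 and 0.20. The 37 standard genes had a median of 0.19, and the 6 measured copies one of 0.15. Spread followed brightness: the 22 brighter members had an SD of 0.20 and the 21 measured of the dimmer 22 one of 0.44.

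Of the large subunit, Rpl17 lay farthest above 0. Its protein lines the tunnel through which the new peptide leaves. The intensities were 503.2, 1254 and 852.5, a difference of 1.35 or 2.55-fold at 0.1 h, from its only probe set and on a dim signal. Rplp0, the base of the stalk that recruits translation factors, was bright, at 23226, 50464 and 33961, or 2.22-fold higher at 0.1 h. Rpl7a, an RNA-binding protein of the large subunit, had 9924, 20837 and 16762, or 2.15-fold higher. In these 3 genes the 0.1 h array was highest and the 0.0 h array lowest. With the spike-in scaling only Rpl17 of these stayed at least 2-fold higher, at 1.08, with Rplp0 at 0.88 and Rpl7a at 0.83.

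In the small subunit the gene past 2-fold was Rps15, a protein of the subunit's head. Its brightest probe set read 2108, 4181 and 3242, or 2.03-fold higher at 0.1 h. Its other probe sets did not follow, and the call rests on the choice of probe set. One read 687.6, 827.7 and 744.9 (a difference of 0.30), and another read 3232, 2092 and 2404 (a difference of -0.59).

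Just under the 2-fold line stood Rpl6, at 19129, 37188 and 27503, or 1.99-fold higher at 0.1 h. Next came Rps3, at 1.74-fold. Rpl13a, also known for silencing inflammatory messenger RNAs when released from the ribosome, was 1.45-fold higher, at 71324, 101208 and 59322. As read from their brightest probe sets, all 3 were highest at 0.1 h.

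Members below 0 were fewer and their differences smaller. Rpl41, a very short protein that bridges the subunits, had 2955, 1818 and 3271 and the lowest difference, -0.67. The pseudogene Rps2-ps1 followed at -0.58. Rps4x-ps9, listed as a pseudogene of Rps4x but bright at 42187, 30253 and 46956, was at -0.45. Whether its probes also bind transcripts of the parent gene was not tested. Rpl5 was at -0.38 and Rpl21 at -0.25. Apart from Rps2-ps1, which was lowest at 1.0 h, these members were lowest at 0.1 h.

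Other members with known roles beyond the subunit's frame lay near or below the group's median of 0.19, as read from their brightest probe sets. Rps6, the substrate of the S6 kinases, had 71777, 74395 and 65300, a difference of 0.09 at 0.1 h, with its other probe set at 0.42. Rpsa, also called the laminin receptor, had 21387, 24050 and 25147, a difference of 0.20. Rpl11, which with Rpl5 binds the p53 regulator Mdm2, had 21540, 23865 and 22203, a difference of 0.18.

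**Figure D2:**
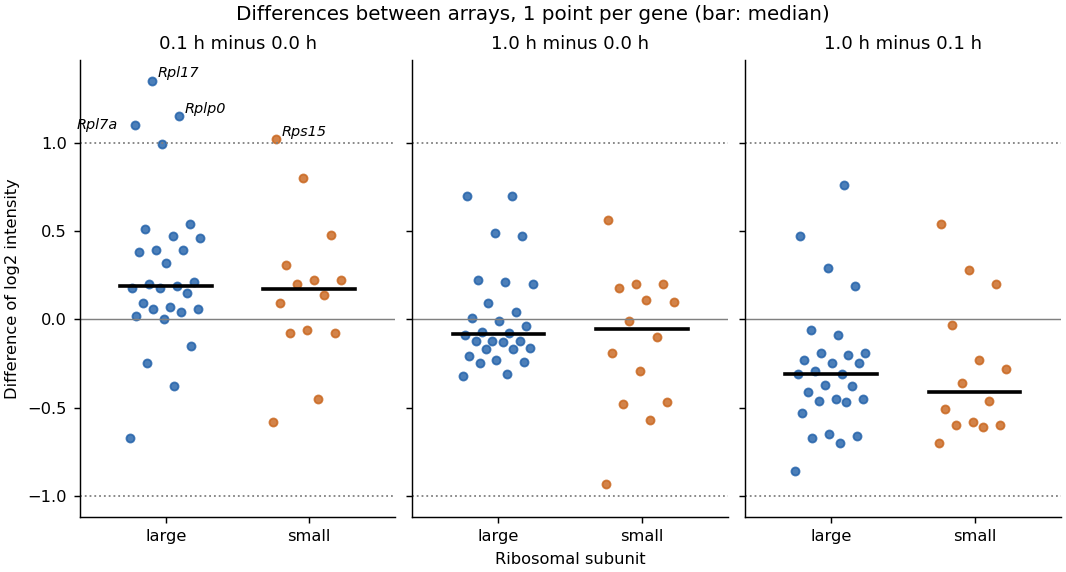
Difference of log2 intensity between arrays for the large (blue) and small (orange) subunit genes, 1 point per gene and comparison, with a bar at the median and dotted lines at 2-fold. At 0.1 h against 0.0 h most points lie above 0 (medians 0.19 and 0.17, turning to -0.09 and -0.10 with the spike-in scaling) and 4 pass 2-fold; in the other comparisons none does.

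At 1.0 h against 0.0 h the group lay close to all genes. The median was -0.09 (quartiles -0.21 and 0.16) over 42 members and 0.01 over all genes, and with the spike-in scaling the members' median turned to 0.11. The group's distance from all genes ran from -0.10 to -0.02 over the 5 scalings. It was -0.02 with quantile and with cyclic loess normalisation, the scalings that can change it. Above 0 were 16 members, against 51% of all genes. Past 2-fold were 0 members in either direction, where 2.34% of all genes were higher and 2.64% lower. The large subunit's median was -0.09 and the small subunit's -0.06, turning to 0.11 and 0.14 with the spike-in scaling.

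The extremes at 1.0 h were Rpl17 and Rps2-ps1. Rpl17 and Rpl7a were both 0.70 higher than at 0.0 h, followed by Rps15 at 0.56, Rplp0 at 0.49 and Rpl6 at 0.47. This comparison and that of 0.1 h share the 0.0 h array. Rps2-ps1 was lowest at -0.93. Among standard genes the lowest was Rps3a, a small subunit protein that binds initiation factors, at -0.57, with 64628, 60732 and 45297. Rps16 and Rps10 came next, at -0.48 and -0.47.

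Set against 0.1 h, the 1.0 h array was lower in most members. The median was -0.33 (quartiles -0.52 and -0.19) over 42 members and 0.00 over all genes; with the spike-in scaling these became 0.14 and 0.47. The group's distance from all genes ran from -0.34 to -0.27 over the 5 scalings. It was -0.28 with quantile and -0.27 with cyclic loess normalisation, the scalings that can change it. Above 0 were 7 members and below 0 were 35, where 50% of all genes were above. At least 2-fold apart were 0 members in each direction, against 4.04% of all genes higher and 5.06% lower. This comparison shares an array with each of the others. The large subunit's median was -0.31 and the small subunit's -0.41, turning to 0.16 and 0.06 with the spike-in scaling. The small subunit's also turned to 0.15 over the 4 genes read from an EST probe set. It turned to 0.05 over the 2 read from a second-brightest probe set, names ending in _g_at left out. In Rps3, Rps6 and Rpsa, which that reading leaves out, the less bright probe sets read -1.49, -0.71 and 0.04.

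Rpl13a had the lowest value at 1.0 h against 0.1 h, -0.86 or 1.82-fold, with its other probe set at -0.01. Rpl3l and Rps16 were both at -0.70, Rpl35a at -0.67, Rplp0 at -0.66 and Rpl17 at -0.65. Highest was Rpl41, at 0.76, then Rps4x-ps9 at 0.54 and Rpl21 at 0.47. The less bright probe sets of Rpl21 went the other way, at -0.59, -0.43 and -1.42.

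The 0.1 h array was the highest of the 3 for 31 of the 42 members above the floor throughout, where it was highest for 36% of all genes. The 0.0 h array was highest for 5 members and the 1.0 h array for 6, where the shares of all genes were 31.4% and 32.6%. Lowest was the 1.0 h array for 25 members (31.5% of all genes), the 0.0 h array for 11 (31.9%) and the 0.1 h array for 6 (36.6%). With the spike-in scaling the 0.1 h array was highest for 9 members, or 21.4%, against 13.5% of all genes. With quantile normalisation it was highest for 25 of 41, against 32.1% of all genes.

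Promoters were read to show what members share in sequence apart from their names. RefSeq's table for the rat assembly GRCr8 held a window from 250 bases before to 50 after the start for 37 of the 44 members. A run of at least 6 C or T within 10 bases of the start, on the gene's strand, was present in 27 of them (73%), against 28.3% of 27457 promoters and 27% of the promoters of genes on the array. The stricter form, C at the start base followed by at least 4 C or T, was in 11 members (29.7%), against 2.63% of all promoters. In the sequences below, 30 bases before the start and 15 from it are shown, and capitals mark the run of C or T. The first 4 are the genes at least 2-fold higher at 0.1 h, Rpl19 and Rpl31 are members with differences of 0.00 and 0.02, and Rpl41 and Rps27l are members below 0 that hold no such run.
Rplp0: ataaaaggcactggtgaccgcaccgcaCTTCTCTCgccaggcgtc
Rpl7a: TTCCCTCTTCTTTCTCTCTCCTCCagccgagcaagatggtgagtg
Rps15: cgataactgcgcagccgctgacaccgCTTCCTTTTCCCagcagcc
Rpl17: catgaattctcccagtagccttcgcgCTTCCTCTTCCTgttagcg
Rpl19: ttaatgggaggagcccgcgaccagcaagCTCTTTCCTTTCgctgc
Rpl31: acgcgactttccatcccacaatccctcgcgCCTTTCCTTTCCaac
Rpl41: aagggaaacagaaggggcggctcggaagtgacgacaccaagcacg
Rps27l: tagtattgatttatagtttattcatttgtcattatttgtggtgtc

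In GRCr8 these stretches lie at chr12:46718376-46718420 on the minus strand for Rplp0, chr3:30637106-30637150 on the plus strand for Rpl7a and chr7:10068101-10068145 on the minus strand for Rps15. Those of Rpl17 at chr18:70856246-70856290, Rpl19 at chr10:83519034-83519078 and Rpl31 at chr9:49143081-49143125 are on the plus strand. Rpl41 lies at chr7:1563483-1563527 on the minus strand and Rps27l at chr8:76443628-76443672 on the plus strand. Each spans the annotated start of its gene. All 4 genes past 2-fold had a run, and so did Rpl19 and Rpl31, which hardly differed between 0.0 h and 0.1 h. Among members whose sequence is not shown, Rpl6 at 0.99 held no run, while Rpl5 at -0.38 and Rpl21 at -0.25 each held one. The 27 members with a run had a median difference of 0.21 at 0.1 h (from -0.38 to 1.35), and the 9 measured members without one 0.06 (from -0.67 to 0.99). For the stricter form the medians were 0.20 with it and 0.20 without it.

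Another 4 motifs were searched on both strands of the 300 bases, where their matches may overlap. ATGGCG was in 14 members (37.8%), against 10.6% of all promoters and 13.5% of those of genes on the array. CCGGAA was in 13 (35.1%), against 15.8% and 20.1% in the same order. GGGCGG was in 23 (62.2%), against 34.9% of all promoters and 56.2% of those of genes on the array. TATAAA was in 5 (13.5%), between the 14.3% of all promoters and the 11.3% of those of genes on the array. The median number of CG pairs was 22 in members, 7 in all promoters and 18 in those of genes on the array. A match is a description of the letters only.

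Several genes had more than 1 probe set. Some of these probe sets share a design sequence by their names and are not separate readings. Of the 17 such genes, 15 had at least 2 measured. Their probe sets had the same direction at 0.1 h in 7 of the 15, where those of 60.9% of all such genes did, and the median range within a gene was 0.31, against 0.42 over all genes. The widest range was that of Rps15, 1.62.

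Some genes had probe sets that went the same way. Those of Rps3 read 0.80 and 0.66 at 0.1 h, those of Rpl6 0.99 and 0.39, those of Rpl13a 0.54 and 0.35, and those of Rpsa 0.20 and 0.20. In Rps6 they read 0.09 and 0.42, in Rpl11 0.18 and 0.20, and in Rpl23 0.18 and 0.10. The pairs of Rps3, Rpsa, Rps6, Rpl11 and Rpl23 each share a design sequence, and only those of Rpl6 and Rpl13a come from different ones. In other genes they split. Those of Rpl24 read 0.19 and -0.51, those of Rpl3 0.32 and -0.02, those of Rps29 -0.08 and 0.30, those of Rpl26 0.06 and -0.24, those of Rpl27 0.09 and -0.11, and those of Rpl35 0.15 and -0.07. The pairs of Rpl24, Rpl27 and Rpl35 each share a design sequence, and those of Rpl3, Rps29 and Rpl26 do not. Rpl21 had 4, at -0.25, -0.06, 0.03 and 0.73. At 1.0 h against 0.0 h, 1 of these 4 stood apart with 1109 at 0.0 h and 412.2 at 1.0 h, a difference of -1.48. Rpl3l and Rps2-ps1 each had a further probe set that was above the floor on 1 array only.

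**Figure D3:**
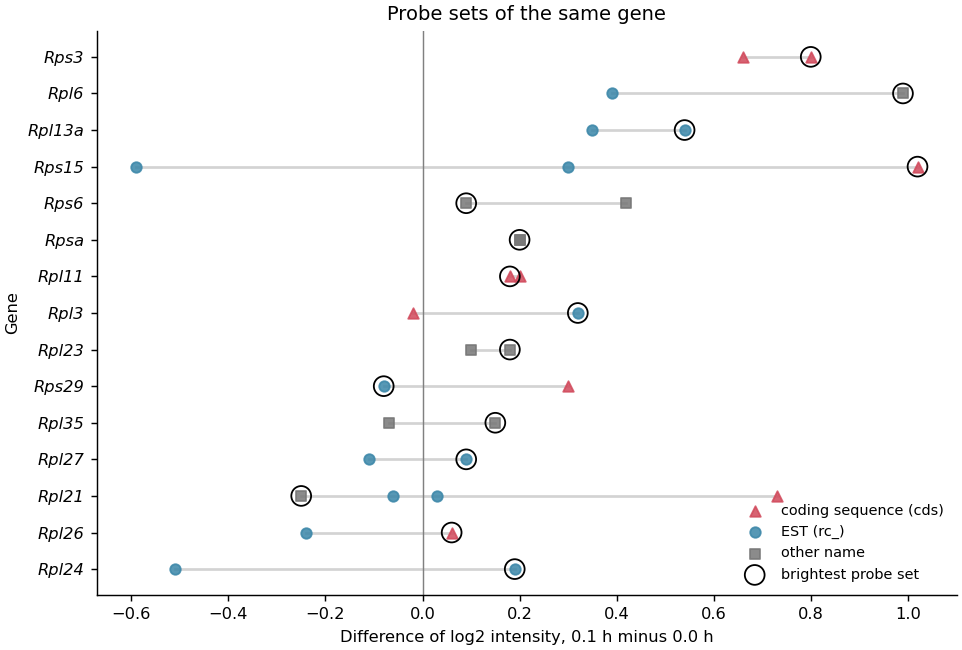
Difference of log2 intensity for each measured probe set of the members with 2 or more, 1 line per gene and 1 point per probe set, with the brightest probe set ringed (triangles: designed on a coding sequence, circles: on an EST, squares: other names). At 0.1 h against 0.0 h the probe sets of Rps15 lie 1.62 apart, and those of 7 of the 15 genes are all on the same side of 0.

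The kind of sequence a probe set was designed on moved with these values. Over all probe sets, those named for a coding sequence had a median of 0.31 at 0.1 h against 0.0 h, with 182 of 254 above 0 and 34 at least 2-fold higher. Those named for an EST had a median of -0.10, with 878 of 2187 above 0 and 80 at least 2-fold higher. Those with other names had a median of 0.13, with 1375 of 2302 above 0 and 180 at least 2-fold higher. Among the probe sets read for the members, 9 were of the coding sequence kind, with a median of 0.47 and all 9 above 0, and 17 were of the EST kind, with a median of 0.20 and 12 above 0. Another 17 had other names, with 12 above 0. Their median was 0.09, which is not above the 0.13 of all probe sets of that kind. Of the 4 genes past 2-fold, Rplp0, Rpl7a and Rps15 were read from the coding sequence kind. Within the EST kind the 21 members that have one had a median of 0.19, against -0.11 for all 1457 genes so read, and 0 were at least 2-fold higher. Without the coding sequence kind the median was 0.12 over 36 members, against -0.01, and 1 was at least 2-fold higher.

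Signs of RNA quality, of the source tissues and of other cells also differed between the arrays. The ratio of the 3′ to the 5′ control probe sets of beta-actin was 10.4, 17.8 and 44.4 at 0.0 h, 0.1 h and 1.0 h, and that of GAPDH 15.3, 18.6 and 14.1. The control probe set of the smallest ribosomal RNA read 415, 783 and 565, highest at 0.1 h like most members. The 9 pinealocyte markers summed to 60349, 67936 and 54171, in the same array order as the members' sum. Of the brightest, Pdc had that order, at 19376, 22445 and 9483, and Tph1 did not, at 21954, 16498 and 23409. The pinealocyte markers' median differences were 0.22 at 0.1 h and -0.02 at 1.0 h against 0.0 h, and -0.29 at 1.0 h against 0.1 h. Above 0 at 0.1 h were 5 of the 7 measured, and 2 were below. The 8 chromaffin cell markers summed to 69361, 66069 and 52767. That sum follows the brightest of them, Chgb, at 64172, 59381 and 50026. Scg2 and Npy were highest at 1.0 h, and Pnmt was lowest there. The summed level of 10 leukocyte markers was 5865, 8804 and 8246, with 6, 7 and 6 above the floor and Itgam, Csf1r and Cd8a below it on all arrays. That of 6 glial markers was 16971, 23296 and 21259, with 5, 4 and 4 above the floor and Aqp4 below it on all arrays. Of the 4 glial markers measured at 0.1 h against 0.0 h, Vim (0.46) and S100b (1.46) were above 0, and Slc1a2 (-0.04) and Slc1a3 (-0.22) were below. The 8 fibroblast and smooth muscle markers, all above the floor, summed to 40626, 28325 and 43261, with 4 of 8 above 0 and 4 below 0 at 0.1 h against 0.0 h. The low sum at 0.1 h follows the brightest of them, the collagen gene Col1a2, at 25426, 11842 and 23813. The summed level of the ribosomal protein genes was 1608686, 1955940 and 1531512. Fewer cells of a type and less RNA per cell cannot be told apart in such samples, and the part of these differences in the results was not tested.

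Lists of genes that work with the ribosome mostly had medians below 0 at 0.1 h, ribosome assembly being the exception, and the spike-in scaling lowers all of them further. The translation initiation factors, which load the small subunit onto messenger RNA, had a median of -0.06 over 20 genes, with 0 at least 2-fold apart. Over the 4 measured genes of elongation it was -0.27; the brightest, Eef1a1, which delivers transfer RNA, had 37782, 31040 and 33028, and Eef1g had 33614, 25673 and 32092. Proteins of the mitochondrial ribosome, a separate machine, had a median of -0.16 over 13 genes, with 0 higher and 2 lower by 2-fold (Mrpl13 at -1.09 and Mrps31 at -1.01). Over all genes 5.68% were higher and 4.71% lower by 2-fold in this comparison. The 10 genes of ribosome docking at the endoplasmic reticulum had -0.26, with Sec62, of the protein translocation channel, at 20636, 9727 and 19521. The members' own median was 0.19, and the difference between lists was not tested.

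Aminoacyl-tRNA synthetases, which charge transfer RNAs, had 3 of 5 genes measured. Tars1 read 9125, 3751 and 7725, a difference of -1.25 at 0.1 h, and Kars1 read 5186, 2250 and 5583, a difference of -1.17. Both were lowest at 0.1 h. Of the proteins bound to ribosomes, Rack1, a scaffold on the small subunit, had 55200, 58402 and 49358. Naca, which binds new peptides, had 31793, 26466 and 38570, lowest at 0.1 h.

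Ribosome assembly genes split. Ncl, which encodes the nucleolar protein nucleolin, had 8475, 23369 and 12896, or 2.82-fold higher at 0.1 h, and Dkc1, which modifies ribosomal RNA, had 4646, 9098 and 5073, a difference of 1.00. Polr1d, a subunit of the polymerases that make ribosomal and transfer RNA, had 13493, 4907 and 11269, a difference of -1.43. The median over the 8 measured genes was 0.16. In the mTOR list, which controls ribosome production, the median was -0.25. At 0.1 h 0 of its 7 genes were 2-fold apart, where 5.68% of all genes were higher and 4.71% lower. Rps6kb1, the kinase of Rps6, had 2407, 1973 and 2532. Eif4ebp1, a brake on initiation that mTOR releases, was 1.27 higher at 1.0 h than at 0.1 h, at 2524, 1715 and 4399.

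Of the other large complexes, the respiratory chain and ATP synthase had a higher median than the members, 0.55 over 53 genes. By 2-fold, 12 were higher and 2 lower, where 5.68% and 4.71% of all genes were. Ndufb6 and Ndufb9, both of complex I, led with 2.36 and 2.22. The proteasome's median was 0.16 over 27 genes, near that of the members, with Psmd2 at 1.24 and Psme4 at -1.28. At 1.0 h against 0.1 h the medians were -0.34 for the respiratory chain and -0.21 for the proteasome, beside -0.33 for the ribosomal protein genes. These lists were read from the same arrays with the same scaling, and with spike-in controls made equal all genes had medians of -0.28 and 0.47 in these comparisons.

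**Figure D4:**
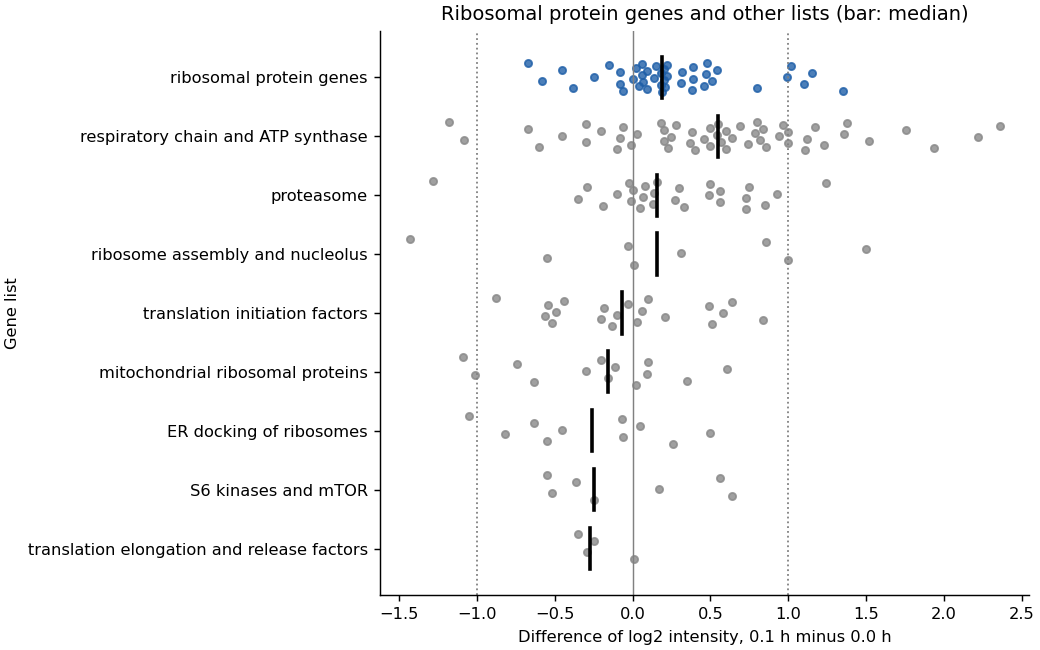
Difference of log2 intensity between the 0.1 h and the 0.0 h array for the genes of each list, 1 point per gene, with a bar at the median and dotted lines at 2-fold. The ribosomal protein genes (0.19) lie near the proteasome (0.16) and below the respiratory chain (0.55), while initiation factors (-0.06) and mitochondrial ribosomal proteins (-0.16) lie below 0. The spike-in scaling lowers the median of all genes to -0.28 and turns that of the ribosomal protein genes to -0.09.

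At 0.1 h against 0.0 h the members' distance from all genes kept its sign under the other readings. It was 0.16 when a gene's probe sets were averaged, 0.18 and 0.21 with lower and higher floors (the 20th and 60th percentiles), and 0.30 within the EST kind. At 1.0 h against 0.1 h it was -0.32, -0.37, -0.31 and -0.46 in the same order. A second-brightest probe set was measured for 7 members once probe sets with names ending in _g_at were left out. With that reading the distance was 0.17 at 0.1 h but 0.07 at 1.0 h against 0.1 h, where the sign turned.

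**Figure D5:**
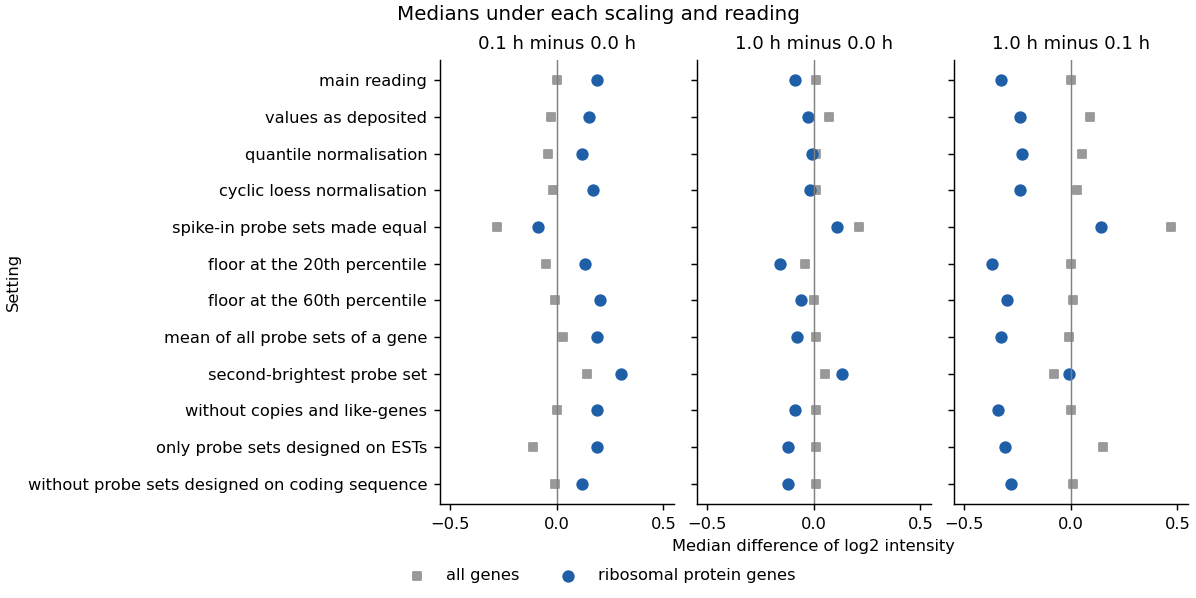
Median difference of log2 intensity of the ribosomal protein genes (blue circles) and of all genes (grey squares) under each scaling or reading, 1 panel per comparison. At 0.1 h against 0.0 h the circle lies right of the square in every setting shown, by 0.13 to 0.30. The spike-in scaling moves both below 0 by the same shift, so it cannot change that distance.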

How the data were processed

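Per the labels, total RNA of 3 rat samples was measured, with 1 array per time label (0.0 h, 0.1 h and 1.0 h). Each deposited value is a linear intensity of 1 probe set. How the authors summarised probes and corrected background is not given in the sources used here. Trimmed of 2% at either end, the arrays' means were 2503.7, 2503.9 and 2503.7, so the deposited intensity values share a common mean. Of 8799 probe sets, 59 controls were left out, 7006 had 1 gene symbol in the platform annotation, 308 had several and 1426 had none there.

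Intensities were taken to log2, scaled to the array median and then brought to equal medians over probe sets above the floor, the 40th percentile of all values. Both steps together shifted the arrays by 0.008, 0.042 and -0.050. A gene was read from its brightest probe set by mean log2 intensity. No p-values were computed. Every member is counted; named with all values were members at least 2-fold apart, the 4 brightest and 4 dimmest, those below the floor, and those with several probe sets (by differences where not otherwise shown), plus stalk genes. An item the naming rule asks for is not reported here. Rpl19, Rpl31, Rpl35a, Rps3a, Rps10, Rps16, Rps27l and Rps4x-ps9 were named after their values were seen. The members and lists were chosen with earlier results of these data known. Of the 44 members, 43 matched RefSeq (GRCr8) by gene ID. The calculation was tested on simulated data. Alternatives were other scalings (cyclic loess with limma 3.58.1 in R 4.3.3), floors and probe set readings; the rest used Python 3.11.15, numpy 2.4.6 and pandas 2.3.3.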

Additional observations from a re-analysis of the deposited data

How the results depend on the processing

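Of 99 alternative values for the medians and counts of all members, 85 stayed within 0.1 on the log2 scale (medians) or 1.5 times (counts) of the reported value and 14 moved further. With the spike-in scaling the medians were -0.09 (0.1 h against 0.0 h), 0.11 (1.0 h against 0.0 h) and 0.14 (1.0 h against 0.1 h), with 1 member at least 2-fold higher in the first and 2 in the last. Under it all genes had medians of -0.28, 0.21 and 0.47 in the same order, so the shares given for the main reading do not apply. With the second-brightest probe set of 7 members, names ending in _g_at left out, the members' medians were 0.30, 0.13 and -0.01. At 0.1 h 0 of these were at least 2-fold higher. Quantile normalisation gave -0.23 for 1.0 h against 0.1 h. The floor at the 20th percentile gave 1 member at least 2-fold lower at 1.0 h against 0.0 h, and the mean of all probe sets gave 1 at 1.0 h against 0.1 h. Reading ESTs only gave 0 of 21 members at least 2-fold higher at 0.1 h, where 80 of 2187 EST probe sets were. Leaving out the coding sequence kind gave 1 of 36. These settings were chosen after seeing the data. Rps15 turned to -0.59 at 0.1 h under both and with its second-brightest probe set. The share of all genes past 2-fold was not computed under the alternatives, and the cause of these moves was not tested. No array could be left out, since each label has 1. No paired analysis was possible because each label has a single array. Signal below the floor limits Rplp1l3 in all comparisons and Rpl30 in those with 1.0 h.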

Other observations

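Another 40 probe sets carry a ribosomal protein symbol together with other symbols, so they name no single gene and stood outside the comparisons. Of these, 38 were measured. Their median difference was 0.11 at 0.1 h against 0.0 h, 0.07 at 1.0 h against 0.0 h and -0.09 at 1.0 h against 0.1 h, with 25, 25 and 13 above 0, where 49.8%, 51% and 50% of all genes were. At 0.1 h against 0.0 h, 4 were at least 2-fold higher and 0 lower, where 5.68% and 4.71% of all genes were. At 1.0 h against 0.0 h 2 were higher and 1 lower (2.34% and 2.64% of all genes), and at 1.0 h against 0.1 h 0 were higher and 2 lower (4.04% and 5.06%). By kind of design, the 17 named for a coding sequence had a median of 0.36 at 0.1 h against 0.0 h, the 10 named for an EST 0.06 and the other 11 0.00, where the medians over all probe sets of these kinds were 0.31, -0.10 and 0.13.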
